A study of Mus musculus with 12 samples.

Results

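*Prl2c3*, *Prl2c5*, *Fam181b* and *Slc36a2* are 4 genes, of 32301 genes and transcripts with a value on these arrays, that lie outside the antioxidant enzymes usually linked to Nrf2 and that stood among the highest differences between macrophages without *Keap1* and wild-type macrophages. They were chosen by their log2 difference between KpCKO and WT in these same arrays, so that difference is described here and not tested. BMDMs, macrophages grown from bone marrow with M-CSF for 7 days, came from 8-week-old C57BL/6 mice that were either WT or KpCKO, that is *Keap1* flox/flox::LysM-Cre, in which a Cre driven by the lysozyme M locus deletes *Keap1* in myeloid cells. M-CSF was withdrawn some hours before stimulation, and the cells were then left untreated (Con) or received LPS and IFNγ (M1) or IL-4 (M2) for 6 h. By the replicate numbers of the titles, the 2 cultures were each taken as a pair of mice, 1 WT and 1 KpCKO. The pair of culture 1 was male and that of culture 2 female, and each of the 6 groups had 2 arrays. The labels do not say whether the WT mice carried a floxed allele or Cre.

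*Keap1* holds the transcription factor Nrf2 at a low level by directing its degradation, and Nrf2 that escapes *Keap1* pairs with small Maf proteins and binds the antioxidant responsive element (ARE) of its target genes. *Prl2c3* and *Prl2c5* encode proliferins, secreted glycoproteins of the prolactin family that are best known as products of trophoblast giant cells of the placenta, where they act on the growth of blood vessels, and that bind the receptor for mannose 6-phosphate and IGF2. *Slc36a2* encodes PAT2, a transporter that carries glycine, proline and alanine across membranes together with protons. *Fam181b* encodes a protein of little-known function whose gene is active in the developing nervous system.

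Promoter sequences were at hand for 3 of the 4 genes, from RefSeq on the build GRCm38.p6, and are shown because the proliferin pair is nearly the same in sequence and because the ARE is the element through which Nrf2 acts. Each is the 250 bases before the start of the gene, on the strand of the gene, at chr13:12800080-12800329 on the minus strand for *Prl2c3*, chr13:13182466-13182715 on the plus strand for *Prl2c5* and chr7:93079629-93079878 on the plus strand for *Fam181b*. In the proliferin pair, capitals mark the bases that differ between the genes or stand opposite a gap in their alignment, and in *Fam181b* they mark the match to an ARE core.
Prl2c3: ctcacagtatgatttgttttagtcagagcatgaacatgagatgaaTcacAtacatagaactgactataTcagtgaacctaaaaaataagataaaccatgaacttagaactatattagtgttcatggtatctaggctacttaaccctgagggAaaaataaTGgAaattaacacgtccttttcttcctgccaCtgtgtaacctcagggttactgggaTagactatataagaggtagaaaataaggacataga
Prl2c5: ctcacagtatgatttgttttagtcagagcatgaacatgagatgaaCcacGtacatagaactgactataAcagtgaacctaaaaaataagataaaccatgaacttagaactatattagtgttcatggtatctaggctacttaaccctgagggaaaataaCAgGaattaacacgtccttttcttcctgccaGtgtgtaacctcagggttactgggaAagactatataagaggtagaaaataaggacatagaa
Fam181b: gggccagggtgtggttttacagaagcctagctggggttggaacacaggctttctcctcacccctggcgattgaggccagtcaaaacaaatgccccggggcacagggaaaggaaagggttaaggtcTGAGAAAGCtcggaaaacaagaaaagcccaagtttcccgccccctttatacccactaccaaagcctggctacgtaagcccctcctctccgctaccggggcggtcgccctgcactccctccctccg
The promoters of *Prl2c3* and *Prl2c5* were identical at 241 of 250 aligned columns (96.4%), with 8 substituted bases and 1 gap. The core of the ARE was searched on both strands in its forms TGAGNNNGC and TGACNNNGC, which 14.4% and 10.2% of the 32851 promoters of the same length hold, and 23% hold either. *Fam181b* held 1 match to TGAGNNNGC that began 125 bases before the start, whereas neither form was found in the window of *Prl2c3* or *Prl2c5*. The motif TGANTCA was searched with any middle base, and 6.75% of promoters hold it. It takes in the AP-1 site TGACTCA, which overlaps the form TGACNNNGC where it is followed by GC. A match to TGANTCA occurred in *Prl2c3*, 209 bases before the start, at a place where one of the bases that differ from *Prl2c5* lies, and not in *Prl2c5*. That match reads TGAATCA, with A in the middle, and is thus not TGACTCA. These are matches of letters in a short window, and no binding of a factor was measured on these arrays.

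The arrays were compared by the log2 signal of a probe less the log2 of the 75th percentile on that array, so that a level of 0 is as bright as that percentile. This percentile was lowest in WT M1 (547.7 and 757.1), followed by KpCKO M1 (786.6 and 906.0), and ranged from 965.7 to 1165.6 elsewhere, and between 59.4% and 71.5% of probes were well above background. *Keap1*, the targeted gene, was lower in KpCKO, with log2 differences of −1.46, −1.71 and −1.81 in Con, M1 and M2, and *Nqo1*, the classical Nrf2 target, was higher by 3.23, 3.50 and 3.52. Con, M1 and M2 lay on separate slides of 4 arrays, so a stimulus and its slide cannot be told apart, whereas the genotypes and the cultures lay side by side on each slide. RNA came from whole cultures, in which more cells of a kind and more RNA per cell cannot be told apart. All 7 macrophage markers with a probe were well above background on the 12 arrays.

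The proliferin genes were dim in WT and bright in KpCKO. The probe that stands for *Prl2c3*, its brightest, gave signals of 17.4 and 36.9 in WT Con and of 2462 and 5390 in KpCKO Con, for cultures 1 and 2. On the log2 scale these levels were −6.03 and −4.79 in WT Con and 1.20 and 2.43 in KpCKO Con. Both KpCKO arrays of Con thus lay above the 75th percentile of their array, and both WT arrays far below it. In M1, the levels of *Prl2c3* were −4.95 and −4.28 in WT and 0.74 and 1.93 in KpCKO. In M2, they were −5.51 and −3.88 in WT and 1.32 and 2.50 in KpCKO. *Prl2c3* did not overlap between the genotypes in any of the 3 states, and the lowest KpCKO array stood 4.63 above the highest WT array.

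*Prl2c5* followed the same course. Its levels were −5.62 and −4.45 in WT Con and 1.16 and 2.73 in KpCKO Con. In M1, they were −5.27 and −4.53 in WT and 0.76 and 1.96 in KpCKO, and in M2, −4.91 and −3.41 in WT and 1.36 and 2.74 in KpCKO. All 6 KpCKO arrays again lay above all 6 WT arrays. In the order of group means, *Prl2c3* and *Prl2c5* were highest in KpCKO M2 (1.91 ± 0.84 and 2.05 ± 0.98; SD, n = 2), then in KpCKO Con and KpCKO M1. Within each genotype the arrays of the 3 states overlapped for both genes. Paired by mouse, M1 was below Con in both KpCKO mice, for *Prl2c3* (−0.45 and −0.50) and for *Prl2c5* (−0.41 and −0.77). In WT, M1 less Con was 1.08 and 0.51 for *Prl2c3* and 0.35 and −0.08 for *Prl2c5*.

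**Figure D1:**
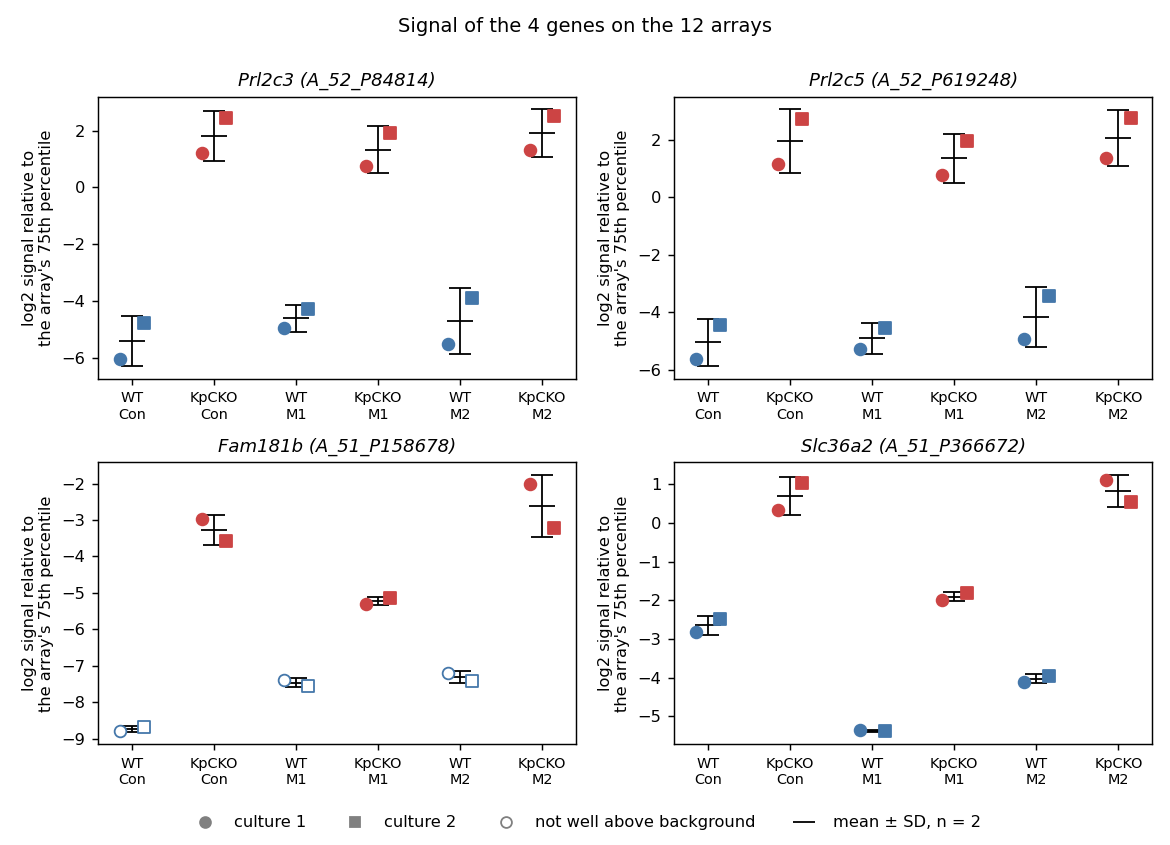
The log2 signal of each gene relative to the 75th percentile of the array (y axis) in the 6 groups (x axis), with a circle for culture 1, a square for culture 2, open symbols where the probe was not well above background, and the mean with its SD (n = 2). *Prl2c3* and *Prl2c5* stood above 0 on all 6 KpCKO arrays, *Fam181b* was not well above background on any WT array, and *Slc36a2* was lowest in WT M1 in both cultures.

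The size of the difference was given by pairing the mice of a culture. *Prl2c3* was higher in KpCKO by a log2 difference of 7.23 in culture 1 and 7.22 in culture 2 in Con, which is 150-fold on average. In M1, it was higher by 5.70 and 6.21 (61.9-fold), and in M2 by 6.83 and 6.38 (97.5-fold). The difference of *Prl2c5* was 6.78 and 7.18 in Con (126-fold), 6.03 and 6.48 in M1 (76.4-fold) and 6.26 and 6.15 in M2 (73.8-fold). Among the 22351 genes tested, these placed *Prl2c3* at position 1, 3 and 1 and *Prl2c5* at position 2, 2 and 3 of the differences in Con, M1 and M2. By the mean over the 3 states, *Prl2c3* (6.60) and *Prl2c5* (6.48) were at positions 1 and 3 of the genes with a symbol, with *Gsta3*, a glutathione S-transferase, between them at 6.58. These sizes and positions are those of the brightest probes, set against dim WT signals. In Con, *Prl2c3* differed by 5.73 (53.1-fold) with probe A_51_P312779 and by 5.28 with the normexp background correction. The other probe of *Prl2c5* gave a larger difference, 7.68.

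The array has 5 probes for this pair, and their sequences were not among the files used here, so how far a probe also reads the other gene or *Prl2c2*, a close relative for which no probe was matched, cannot be told. All 5 rose and fell together, with a Pearson r between 0.986 and 0.999 in 10 pairs of probes over the 12 arrays, which share the split into genotypes, and between 0.987 and 0.997 over the 6 KpCKO arrays alone. For *Prl2c3*, probe A_51_P312779 differed by 5.73 in Con, 4.78 in M1 and 5.85 in M2. Probe A_51_P312780 was not well above background on any WT array, and it was at least 30.2-fold higher in KpCKO in Con, at least 10.5-fold in M1 and at least 26.9-fold in M2. Each such bound sets the mean of KpCKO against the lowest signal that still counted as well above background on the WT arrays. For *Prl2c5*, probe A_52_P511450 differed by 7.68, 6.48 and 6.83, and in WT it was well above background in culture 2 but not in culture 1. The 5 probes were well above background on all 6 KpCKO arrays. Which of the proliferin genes each probe reads was not tested, and the order of *Prl2c3* and *Prl2c5* depends on which probe is taken.

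Other members of the prolactin family were for the most part not detected. The family is encoded by many genes, most of them active in the placenta, and of the 25 listed besides *Prl2c3* and *Prl2c5*, 20 had a probe, 7 were well above background on at least 1 array and 1 was bright enough to be tested. That gene, *Prl3b1*, which encodes a placental lactogen, was well above background on all 12 arrays and differed by −0.03 in Con, −0.29 in M1 and −0.04 in M2 (limma, adjusted p = 0.972, 0.140 and 0.943). Prl itself, the gene of the pituitary hormone, was not well above background on any array. *Prl7c1* was well above background on 2 arrays and *Prl3c1*, *Prl7a1*, *Prl7a2*, *Prl8a2* and *Prl8a8* on 1 array each. The summed signal of the 20 genes, relative to the 75th percentile, was 0.247 and 0.354 in WT Con and 0.244 and 0.439 in KpCKO Con, which overlap. In M1 it was 0.353 and 0.389 in WT and lower, 0.292 and 0.295, in KpCKO, and in M2 it was 0.287 and 0.319 in WT and 0.285 and 0.316 in KpCKO, which overlap. Apart from *Prl3b1*, these sums rest mostly on signals not well above background. The 75th percentile that scales them was lowest in WT M1 (547.7 and 757.1). The gap in M1 is thus no measured difference of the family, and its cause was not tested.

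Genes of 3 receptors were listed beside the family, and all were well above background on the 12 arrays. *Igf2r*, the receptor for mannose 6-phosphate and IGF2 to which proliferins bind, differed by 0.12, 0.38 and 0.46 in Con, M1 and M2 (limma, adjusted p = 0.839, 0.119 and 0.216). *Prlr*, the prolactin receptor, differed by −0.12, −0.31 and 0.05 (limma, adjusted p = 0.815, 0.163 and 0.926), and *Ghr*, the growth hormone receptor, by 0.69, 0.62 and 0.67 (limma, adjusted p = 0.120, 0.0557 and 0.143). None of the 3 passed limma's test in any state, and 1, 2 and 2 of them had an unadjusted p below 0.05 in Con, M1 and M2. Across all genes tested, 1.38% were called higher and 0.828% lower in KpCKO Con, 7.43% and 8.59% in KpCKO M1, and 1.28% and 0.644% in KpCKO M2. In M1, these were 1661 genes higher and 1921 lower, and quantile normalization turned the split to 2030 higher and 1352 lower.

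Markers of trophoblast cells were set beside the proliferins between the genotypes. Of 12 listed, 10 had a probe and 4 could be tested, of which none passed in any state (0, 1 and 0 at an unadjusted p below 0.05 in Con, M1 and M2). *Gcm1*, *Cdx2*, *Eomes* and *Ctsq*, which define trophoblast lineages, were well above background on 0 of 12 arrays, and *Hand1* and *Elf5* on 1. The 4 that were tested were detected more widely, *Prl3b1* and *Ascl2* on all 12 arrays, *Psg17* on 11 and *Tpbpa* on 6. The summed signal of the 10 markers, of which *Prl3b1* was the brightest, was 0.309 and 0.349 in WT Con against 0.351 in KpCKO Con of culture 1. In KpCKO Con of culture 2, *Tpbpa* had no value, and the sum without it was 0.311. The sums were 0.454 and 0.475 against 0.384 and 0.387 in M1, and between 0.364 and 0.372 against 0.359 and 0.389 in M2. Among macrophage markers, 1, 4 and 1 of the 7 were lower in KpCKO in Con, M1 and M2 and none was higher, with *Cd14*, the co-receptor of LPS, lower in all 3 (−1.19, −1.33 and −0.86). Their summed signal was 583 and 639 in WT Con against 405 and 469 in KpCKO Con. In M1 it was 833 and 1041 against 560 and 662, and in M2 488 and 545 against 414 and 452. The genotypes thus did not overlap in this sum in any state, and the cause was not tested. Of 7 neutrophil, 6 mast cell, 7 fibroblast and 4 neural markers tested, none passed limma's test between the genotypes in any state, with at most 2 neutrophil markers and at most 1 of each of the other kinds at an unadjusted p below 0.05. Some differences were large all the same. *Cpa3*, a mast cell marker well above background on 6 arrays, differed by 3.19, 0.49 and 2.23 (limma, adjusted p = 0.296, 0.802 and 0.471). *Dcn*, a fibroblast marker, differed by −2.70, −2.74 and −2.72 (limma, adjusted p = 0.212, 0.0733 and 0.216). The summed mast cell signal was 0.129 and 0.167 in WT Con against 0.193 and 0.226 in KpCKO Con. In M1 it was 0.263 and 0.293 against 0.175 and 0.196, and in M2 it overlapped.

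The proliferins also differed between the cultures. *Prl2c3* was higher in culture 2 than in culture 1 in 6 of 6 groups, by 1.23, 1.18 and 1.19 in KpCKO Con, M1 and M2 and by 1.24, 0.67 and 1.63 in WT. In KpCKO this was 2.30-fold on average. Over all groups the difference of *Prl2c3* was 1.19 with a standard error of 0.116 (limma, adjusted p = 0.00508). *Prl2c5* was also higher in culture 2 in 6 of 6 groups, by 1.56, 1.20 and 1.38 in KpCKO (2.60-fold) and by 1.17, 0.74 and 1.49 in WT, and over all groups by 1.26 with a standard error of 0.113 (limma, adjusted p = 0.00471). The 6 groups of a culture come from 1 WT and 1 KpCKO mouse, each measured in 3 states, so the 6 differences share 2 mice per culture and the p-values treat arrays of the same mouse as separate. Of all genes tested, 9.37% were called higher and 9.04% lower in culture 2. This comparison took no part in the choice of the genes, and 2 of the 4 passed it. These 2 are the proliferin pair, whose probes rose and fell together and may read the same gene, so they are not separate results.

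Every proliferin probe was higher in culture 2 on the KpCKO arrays, where all were well above background, by between 1.08 and 1.56. On the WT arrays, probe A_51_P312779 was lower in culture 2 in Con (−0.25) and probe A_51_P312780, not above background there, in M1 (−1.12), and the others were higher. With A_51_P312780 in place of the brightest probe, the difference of *Prl2c3* between the cultures was 0.78 and no longer passed (limma, adjusted p = 0.138). As WT and KpCKO were both higher in culture 2, the difference between the genotypes in Con, 7.23 and 7.22 for *Prl2c3*, was nearly the same in the cultures. *Fam181b* (−0.32; limma, adjusted p = 0.247) and *Slc36a2* (0.13; adjusted p = 0.582) did not pass between the cultures, nor did *Keap1* (0.02; adjusted p = 0.929), whereas *Nqo1* was higher by 0.34 (limma, adjusted p = 0.0147). The Nrf2 targets as a list did not follow, with 2 of 37 tested higher and 9 lower in culture 2 and a median difference of −0.16, beside 9.04% of all genes called lower and a median of −0.02. Each culture was a mouse pair of 1 sex, so culture and sex cannot be told apart. Some markers of other cells moved with the culture as well. The summed signal of the 8 neutrophil markers was between 13.0 and 16.6 in culture 1 and between 3.15 and 9.77 in culture 2. Of 7 neutrophil markers tested, 6 were called lower in culture 2. The sum of the 8 fibroblast markers in KpCKO was between 42.1 and 54.4 in culture 1 and between 22.8 and 28.8 in culture 2. In WT it overlapped, at 35.4 to 37.9 in culture 1 and 33.2 to 41.8 in culture 2. Of 7 fibroblast markers tested, 0 passed between the cultures. *Elane* and *Lum* were well above background on 0 and 1 of 12 arrays, and the part of these cells in the result was not tested.

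**Figure D2:**
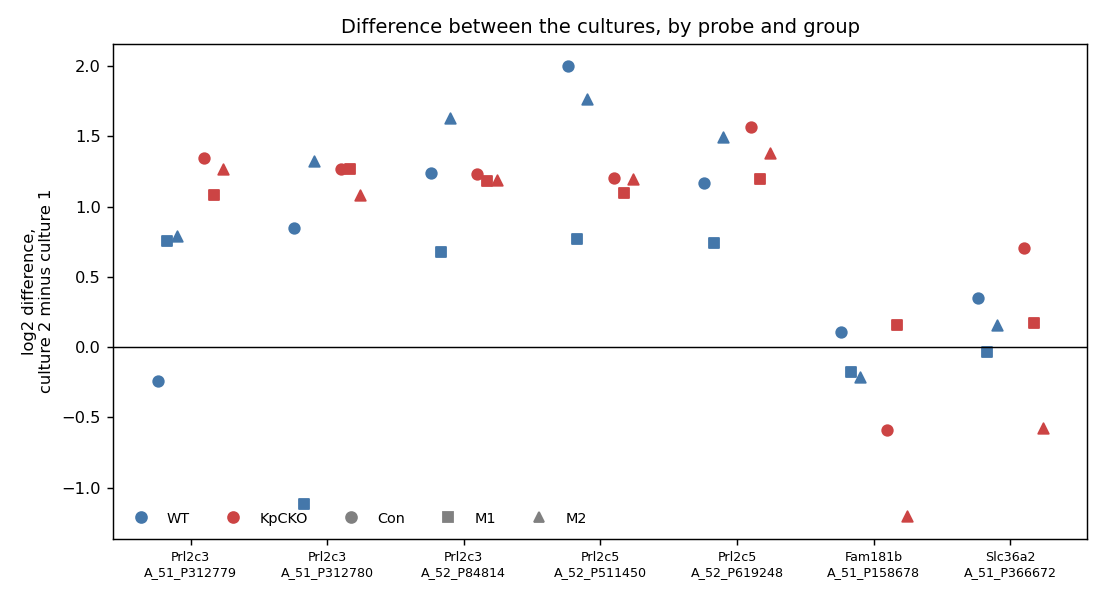
The log2 difference between culture 2 and culture 1 (y axis) for each probe of the 4 genes (x axis), with 1 point per group, blue for WT and red for KpCKO, and a circle, square or triangle for Con, M1 and M2. The 15 red points of the 5 proliferin probes lie between 1.08 and 1.56, those of *Fam181b* and *Slc36a2* lie on both sides of 0, and the WT points of A_51_P312780 and *Fam181b* come from signals not well above background.

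*Slc36a2*, the amino acid transporter, was present in WT and higher in KpCKO. Its levels were −2.82 and −2.47 in WT Con and 0.34 and 1.04 in KpCKO Con. In M1, they were −5.35 and −5.39 in WT and −1.99 and −1.82 in KpCKO, and in M2, −4.11 and −3.95 in WT and 1.12 and 0.54 in KpCKO. The probe was well above background on all 12 arrays, and the genotypes did not overlap in any state. KpCKO was higher by 3.16 and 3.52 in Con (10.1-fold), 3.36 and 3.57 in M1 (11.1-fold) and 5.22 and 4.49 in M2 (29.0-fold), at positions 29, 40 and 4 of the genes tested. In the order of its levels, KpCKO M2 (0.83 ± 0.41; SD, n = 2) and KpCKO Con (0.69 ± 0.50) overlapped, and KpCKO M1 (−1.90 ± 0.12), WT Con (−2.65 ± 0.24), WT M2 (−4.03 ± 0.11) and WT M1 (−5.37 ± 0.02) followed without overlap.

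M1 and Con lay on separate slides, so stimulus and slide cannot be told apart here. *Slc36a2* was lower in M1 than in Con in both genotypes. Its log2 differences were −2.53 and −2.91 in WT, which is 6.60-fold lower on average, and −2.33 and −2.86 in KpCKO, which is 6.04-fold lower. Over both genotypes the log2 difference was −2.66 with a standard error of 0.189 (limma, adjusted p = 2.16e-05), a comparison that sets stimulated against untreated arrays and is independent of the difference between the genotypes. The change was common, since 37% of the genes tested were called higher and 32.2% lower in M1. The median of all genes moved by 0.08, and by −0.07 after quantile normalization. The 4 M1 arrays were not separate from the 4 Con arrays when genotype was left out of the comparison (exact permutation test, two-sided, p = 0.171, with 0.0286 the smallest it allows), because KpCKO M1 lay above WT Con.

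Its relatives in the SLC36 family were read beside it. *Slc36a1*, the lysosomal proton-coupled amino acid transporter, fell in M1 by 2.47 over both genotypes (limma, adjusted p = 3.44e-05) and *Slc36a4* fell by 1.17 (limma, adjusted p = 2.82e-05), whereas *Slc36a3* rose by 0.74 (limma, adjusted p = 0.0129). Between the genotypes, *Slc36a1* was higher in KpCKO by 0.62 in Con, 1.61 in M1 and 0.87 in M2 and passed in M1 (limma, adjusted p = 0.379, 0.0146 and 0.215). *Slc36a4* was higher by 0.60 in M1 (limma, adjusted p = 0.0253) and did not pass in Con (0.17) or M2 (0.29), and *Slc36a3* did not pass in any state, with differences of 0.15, −0.39 and −0.06. *Slc36a2* lies between *Slc36a3* and *Slc36a1* on chromosome 11, and its differences of 3.34 ± 0.25, 3.47 ± 0.15 and 4.86 ± 0.52 (SD, n = 2) stand beside these. *Fam181a*, the relative of *Fam181b*, had no matched probe.

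In M2, *Slc36a2* took different courses in the genotypes. In WT it was below Con by log2 differences of −1.28 and −1.47, whereas in KpCKO the differences were 0.78 in culture 1 and −0.50 in culture 2. These responses share their arrays with the differences that chose the gene, so the gap between them was not tested. Over both genotypes the response was −0.62 with a standard error of 0.189 (limma, adjusted p = 0.0470), which passed with 2 of the 12 arrays left out in turn and not with the other 10. Of all genes, 15.9% were called higher and 14.4% lower in M2.

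**Figure D3:**
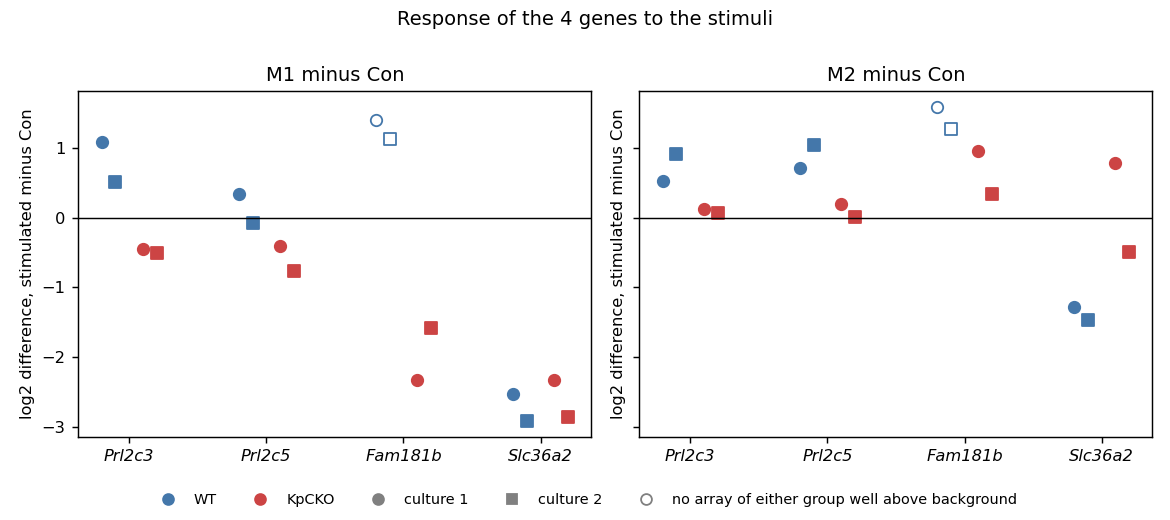
The log2 difference between stimulated and untreated cells of the same mouse (y axis) for the 4 genes (x axis), for M1 on the left and M2 on the right, with blue for WT, red for KpCKO, a circle for culture 1 and a square for culture 2, and open symbols where no array of either group was well above background. *Slc36a2* fell in M1 in all 4 mice by between 2.33 and 2.91, and *Fam181b* fell in M1 in both KpCKO mice.

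Genes of amino acid carriers, most of them for neutral amino acids, were listed to set *Slc36a2* beside them. Of 16 listed, 15 had a probe and 13 could be tested, and 2, 3 and 1 of them were higher and 1, 1 and 1 lower in KpCKO in Con, M1 and M2. Their median differences of 0.06, 0.24 and −0.06 compare with medians of 0.0016, −0.09 and 0.02 over all genes. *Slc7a11*, the cystine and glutamate exchanger and a known Nrf2 target, was higher by 3.17, 1.30 and 2.83 (limma, adjusted p = 0.00656, 0.0426 and 0.0103), and it was the gene of the list that was called higher in M2. *Slc6a9*, a glycine transporter, was higher by 2.03 in Con and 3.31 in M1 (limma, adjusted p = 0.0285 and 0.00204) and differed by 0.78 in M2 (adjusted p = 0.325). *Slc7a8*, a carrier of large neutral amino acids, was lower, with log2 differences of −1.22, −1.02 and −1.07 (limma, adjusted p = 0.00678, 0.00562 and 0.0111). *Slc1a5*, the glutamine carrier, was higher by 1.08 in M1 (limma, adjusted p = 0.0276). Adipocyte markers were listed since *Slc36a2* is also known from brown fat. The summed signal of the 6 markers was 0.0464 and 0.0683 in WT Con against 0.0612 and 0.0635 in KpCKO Con, 0.0694 and 0.0927 against 0.0538 and 0.0739 in M1, and 0.388 and 0.877 against 0.993 and 1.26 in M2. *Adipoq*, the gene of adiponectin, had mean levels of −1.08 in WT M2 and 0.09 in KpCKO M2, near the 75th percentile, and of −5.87 or lower in the other groups. Its difference between the genotypes was 1.02 in Con, −0.76 in M1 and 1.17 in M2 (limma, adjusted p = 0.303, 0.216 and 0.238). *Lep* and *Cfd* were well above background on 0 of 12 arrays, and of 4 markers tested, *Cidea* was lower in KpCKO M2 (−1.96; limma, adjusted p = 0.0214) and no other passed. The part of such cells in the level of *Slc36a2* was not tested.

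*Fam181b* was well above background on all 6 KpCKO arrays and on none of the 6 WT arrays. Its levels in KpCKO were −2.98 and −3.56 in Con, −5.30 and −5.15 in M1 and −2.02 and −3.22 in M2. In WT, the measured values were −8.79 and −8.68, −7.38 and −7.55, and −7.20 and −7.42. Set against the lowest signal well above background, *Fam181b* was at least 12.7-fold higher in KpCKO in Con, at least 1.49-fold in M1 and at least 17.0-fold in M2. On the log2 scale these bounds are 3.66, 0.57 and 4.09. The differences from the WT values as read were 5.81 and 5.12, 2.08 and 2.41, and 5.19 and 4.20, which are no measured sizes, and no rank is given for them. In M1, the normexp background correction placed the genotypes level (−0.016), and the bound of 1.49-fold is the smallest of the 3.

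Within KpCKO, *Fam181b* was lower in M1 than in Con in both mice, with log2 differences of −2.32 and −1.58, which is 3.87-fold on average. Its M1 arrays did not overlap with those of Con, whereas its M2 arrays (−2.62 ± 0.85; SD, n = 2) overlapped with those of Con (−3.27 ± 0.42). Paired by mouse, M2 was above Con in both KpCKO mice (0.96 and 0.35). Over both genotypes, *Fam181b* differed by −0.34 in M1 (limma, adjusted p = 0.210) and by 1.04 in M2 (limma, adjusted p = 0.0140), but the WT part of both values was not well above background. With dim signals raised to the lowest signal above background, the M2 response was 0.44 (limma, adjusted p = 0.167). Among the proliferins, read over both genotypes, *Prl2c3* differed by 0.16 in M1 and 0.41 in M2 (limma, adjusted p = 0.348 and 0.0705), and *Prl2c5* by −0.23 and 0.49 (limma, adjusted p = 0.183 and 0.0372). Within KpCKO, both were lower in M1 than in Con (−0.48 and −0.59 on average). Within WT, *Prl2c3* was higher in M1 than in Con in both cultures (1.08 and 0.51), and these courses were not tested.

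Apart from the proliferins themselves, the measured neighbours of the 4 genes in the gene order of GRCm38.p6 had differences of at most 1.61. *Prl2c3*, *Prl2c2* and *Prl2c5* follow each other on chromosome 13, flanked by *Ero1b*, an oxidase of the endoplasmic reticulum, which differed by 0.37, 0.11 and 0.44 and did not pass. On the other side, *Gpr137b* was higher in KpCKO in M1 alone (1.19; limma, adjusted p = 0.0255). Next to *Fam181b* on chromosome 7, *Tenm4*, a teneurin, had differences of 0.98 (Con) and 1.05 (M2) that passed (limma, adjusted p = 0.0355 and 0.0289) and one of 0.55 in M1 that did not (adjusted p = 0.0635), and *Prcp*, a carboxypeptidase, was higher by 0.75 in M1 (limma, adjusted p = 0.0411).

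**Figure D4:**
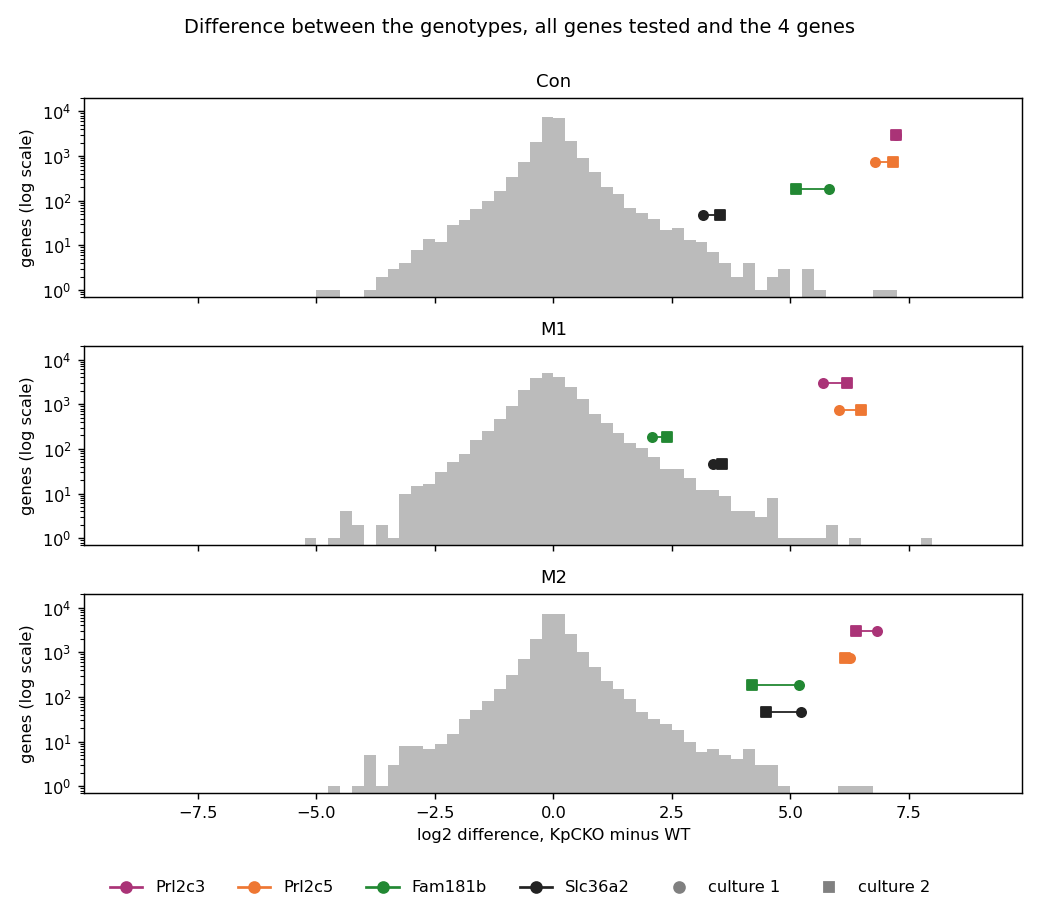
The number of genes, on a log scale (y axis), by their log2 difference between KpCKO and WT (x axis) in Con, M1 and M2, in grey for the 22351 genes tested, with the 4 genes in colour at heights set only to separate them, a circle for culture 1 and a square for culture 2. The proliferins lie at the upper end in each state, between 5.70 and 7.23, while *Fam181b* in M1, at 2.08 and 2.41, is set against WT signals not well above background.

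These 4 genes were set beside the known Nrf2 targets and the genes at the top of the ranking. Of 37 Nrf2 targets tested, 25, 28 and 21 were higher in KpCKO in Con, M1 and M2 and none was lower, with median differences of 1.27, 1.30 and 1.13. The highest of them by mean difference were the glutathione S-transferases *Gsta3* (6.58), *Gsta1* (4.81), *Gsta2* and *Gsta4* and the quinone reductase *Nqo1*. By the mean over the states, *Slc36a2* (3.89) was at position 13 of the genes with a symbol, and *Fam181b* has no measured position, since its WT signal was not well above background on any array. The first 10 also held *Il1f9*, a cytokine of the IL-1 family (5.22), *Tnfsf4*, the OX40 ligand (4.80), *Eef1a2*, a translation elongation factor of muscle and nerve (4.15), *Ceacam10* (4.14) and *Heph*, a copper-dependent ferroxidase (4.13), beside *Gsta3* and *Gsta1*. Of these, *Il1f9* was well above background on 3 of the 6 WT arrays and *Tnfsf4*, *Eef1a2* and *Ceacam10* on 2, so their differences rest in part on signals below what the arrays measure.

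The genes whose levels were most like those of the proliferins over the 12 arrays were *Eef1a2*, *Nqo1* and *Heph*, with a Pearson r of 0.993, 0.979 and 0.976 for *Prl2c3* and 0.992, 0.971 and 0.969 for *Prl2c5*. For *Fam181b* they were *Tmem200a* (0.959), *Mmp12*, the macrophage elastase (0.948), and *Eef1a2* (0.936). For *Slc36a2* they were *Penk*, the precursor of enkephalins (0.979), *Myof*, a membrane repair protein (0.967), and *Fgf13* (0.964). All these values share the 12 arrays and the split into genotypes and stimuli, and are given as a description.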

How the data were processed

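Cy3-labelled RNA of 2 cultures, divided over 6 groups, was read on 12 Agilent mouse arrays of 1 colour. Spots were read by the authors with Feature Extraction 10.7.3.1, per the file headers, and the deposited files give for each spot the background-subtracted intensity, the median intensities of spot and background, and flags for signals well above background, saturated (no probe) or outlying, which are yes or no values and no score. A deposited matrix, normalized in GeneSpring per the study's methods, holds log2 values of 40749 probes. Against the log2 intensities less the array's 75th percentile and the probe's median it had slopes between 0.999623 and 1.00036, and it served as an alternative.

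Outlier spots were left out, spots of a probe averaged, and log2 intensities set relative to the 75th percentile of the probes on the array. Of 41174 probes, 26690 were matched by accession to 18217 symbols, and each gene was read from its brightest probe. Genes entered the fit if both arrays of 1 or more groups were well above background (22367 genes, 22351 tested). limma 3.58.1 (R 4.3.3) was fitted once with the 6 groups and the culture as a block (5 residual and 1.92 prior degrees of freedom), with Benjamini-Hochberg adjustment over all genes tested and a threshold of 0.05. With the culture as a block, p-values measure how unevenly the 2 cultures differed over the 6 groups, and the number of arrays limits the precision. The mean difference between the cultures is not part of that spread, and it is the effect tested in the comparison of cultures. With 2 arrays against 2, the smallest exact p is 0.333, and no such test was run. The pairing by culture was taken from the replicate numbers of the titles, and the study names 2 mice per genotype and 2 independent cultures. The deviations of 22084 genes from their group means correlated at r between 0.162 and 0.597 in 15 pairs of groups. Groups of the same genotype share their mice, so this range does not test the pairing of WT with KpCKO.

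The members and the lists were chosen with earlier results of these data known. Named were the 4 members with all probes, *Keap1* and *Nqo1*, the 3 genes most like each member, and the first 10 by mean difference. Lists other than cell type markers gave genes passing in all 3 states (at most 5) or else the 3 with the largest mean difference. *Slc1a5*, the cell type markers, the SLC36 genes and the neighbours were named beyond that rule. A fold against a group not well above background on either array is a lower bound, from the higher, on each array, of the probe's signal and the lowest signal well above background. The alternatives were quantile normalization, normexp correction with an offset of 50, the matrix, other probes or their mean, no or a stricter filter on dim probes, a floor, eBayes with trend, no culture block, each array left out, and exact permutation tests. The script was tested on simulated data. Python 3.11.15, pandas 2.3.3, numpy 2.4.6, scipy 1.17.1 and matplotlib 3.10.9 were used.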

Additional observations from a re-analysis of the deposited data

How the results depend on the processing

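With each array left out in turn, the 12 differences between the genotypes kept their direction, at 7.20 to 7.26, 5.64 to 6.26 and 6.34 to 6.87 for *Prl2c3* in Con, M1 and M2, 6.79 to 7.16, 5.95 to 6.57 and 6.06 to 6.35 for *Prl2c5*, 5.21 to 5.72, 1.96 to 2.53 and 4.16 to 5.22 for *Fam181b*, and 2.99 to 3.68, 3.37 to 3.56 and 4.43 to 5.28 for *Slc36a2*. Of 258 alternative values of these differences, 257 were positive. Many of the 258 could not move, since the array left out or the setting changed does not enter the estimate. These differences also chose the genes, so their direction is described and not tested. The normexp correction lowered them to 5.28, 4.15 and 4.72 for *Prl2c3*, 5.44, 4.38 and 4.80 for *Prl2c5*, 1.39, −0.016 and 0.93 for *Fam181b* and 2.96, 1.61 and 3.54 for *Slc36a2*. The mean of the probes gave 6.55, 5.33 and 6.19 for *Prl2c3* and 7.33 in Con and 6.52 in M2 for *Prl2c5*. Probe A_51_P312779 gave 5.73, 4.78 and 5.85 and A_51_P312780 gave 6.69, 5.25 and 6.11 for *Prl2c3*, and A_52_P511450 gave 7.68 in Con and 6.83 in M2 for *Prl2c5*. Quantile normalization gave 7.28 for *Prl2c3* in Con, 2.55 for *Fam181b* in M1 and 3.66 for *Slc36a2* in M1. Raising dim signals to a floor, the lowest signal above background, gave 3.66 in Con and 0.57 in M1 for *Fam181b*.

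The M1 response of *Slc36a2* passed limma's test with each array left out (−2.83 to −2.49) and under every other alternative apart from the exact permutation test (−2.66, p = 0.171). The difference of the proliferins between the cultures passed with each array left out (1.10 to 1.29 and 1.20 to 1.36) and under every alternative apart from probe A_51_P312780 (0.78). The M2 responses rested on the setting. That of *Prl2c5* (0.40 to 0.58 with an array left out, 3 of 12 passing) did not pass with quantile normalization (0.47), the normexp correction (0.42), the mean of the probes (0.47), probe A_52_P511450 (0.44), no filter (0.49) or the exact permutation test (0.49, p = 0.743). That of *Slc36a2* (−0.83 to −0.41, 2 of 12 passing) did not pass with quantile normalization (−0.60), the normexp correction (−0.14), no filter (−0.62) or the exact permutation test (−0.62, p = 0.629). That of *Fam181b* (0.78 to 1.30, 9 of 12 passing) did not pass with the normexp correction (0.69), the floor (0.44) or the exact permutation test (1.04, p = 0.543). That of *Prl2c3* (0.27 to 0.54) passed with 3 of 12 arrays left out. The M1 response of *Prl2c5* (−0.38 to −0.072, 1 passing) was 0.022 for probe A_52_P511450, that of *Prl2c3* was 0.0043 to 0.31 (1 passing), and that of *Fam181b* (−0.48 to −0.20) passed with quantile normalization (−0.66; adjusted p = 0.0410) and was 0.079 with the normexp correction. The culture difference of *Fam181b* (−0.42 to −0.14) was 0.21 with that correction, and that of *Slc36a2* was 0.01 to 0.27.

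Without the replicate block, *Prl2c5* in M2 (0.49; limma, adjusted p = 0.593) and *Slc36a2* in M2 (−0.62; adjusted p = 0.0591) no longer passed, and no other call on the 4 genes changed. The genes called higher in KpCKO Con, M1 and M2 fell from 309, 1661 and 287 to 147, 669 and 148, and those lower from 185, 1921 and 144 to 45, 523 and 45. With the normexp correction they were 124, 532 and 129 higher and 61, 532 and 113 lower, without a filter 182, 1053 and 172 higher and 77, 1567 and 66 lower, and with an array left out 74 to 303, 489 to 1596 and 53 to 289 higher and 19 to 160, 348 to 2034 and 14 to 143 lower. Of the Nrf2 targets, 10 to 25, 17 to 27 and 9 to 20 were then higher. The cause of these changes was not tested. Having 2 arrays a group limits all of these values, and *Fam181b* in WT lies below what the arrays measure.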
